A study of Mus musculus with 3 samples.

Results

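Glial cells use some genes to clear potassium and glutamate from the space around neurons and others to regulate pH. A set of such genes was followed through the cell classes of the mouse dorsal root ganglion (DRG), before and after nerve injury. They were Kcnj10, Glul, Slc1a3, Slc1a2, Atp1b2 and Slc4a4, chosen by symbol, and all 6 of them were present among the 31053 genes of the count tables. Spared nerve injury cuts some branches of the sciatic nerve and leaves another intact. The single cell data consisted of 1 library of naïve C57BL/6J mice and 1 library each from mice taken 7 and 14 days after a spared nerve injury on both sides. All mice were male and 13 weeks old, and each library pooled the 8 L3 and L4 DRGs of 2 mice, whose cells cannot be told apart afterwards. With 1 library per condition there was no replicate, so no test between conditions could be made and no p-value is given. The methods of the study describe female mice of other ages and a ligation of the sciatic nerve. For the single cell data, its results name a partial ligation of that nerve and its discussion a spared nerve injury. The description of the libraries here therefore follows the labels.

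Satellite glial cells (SGCs) wrap the cell bodies of sensory neurons in a thin sheath and take up what active neurons release into the narrow gap between them. Kcnj10 encodes Kir4.1, the inwardly rectifying channel through which potassium enters glia, and Atp1b2 encodes the beta 2 subunit of the sodium-potassium pump that drives ions back across the membrane. Slc1a3 (GLAST) and Slc1a2 (GLT-1) are the glial glutamate transporters, Glul is glutamine synthetase, which turns the glutamate into glutamine and is widely used to stain SGCs, and Slc4a4 encodes NBCe1, a cotransporter of sodium and bicarbonate that buffers pH.

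The genes lie on 5 chromosomes of the mouse genome (GRCm38, the assembly also called mm10, with GENCODE vM21 gene models). Kcnj10 (ENSMUSG00000044708) spans chr1:172341210-172374085 on the plus strand and Glul (ENSMUSG00000026473) chr1:153899944-153909723 on the plus strand. Slc1a3 (ENSMUSG00000005360) spans chr15:8634124-8710764 on the minus strand, Slc1a2 (ENSMUSG00000005089) chr2:102658659-102790784 on the plus strand, Atp1b2 (ENSMUSG00000041329) chr11:69599736-69605942 on the minus strand, and Slc4a4 (ENSMUSG00000060961) chr5:88886818-89239653 on the plus strand. Glul overlaps Teddm2 and Slc1a2 overlaps the antisense gene Gm13872, both on the opposite strand, Mir8114 lies within Glul and Gm37310 overlaps Slc1a3 on the same strand, and how the counting treated such overlaps is not given in the sources used here. All values below are whole-gene counts, so isoforms of a gene were not separated.

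Kcnj10 was the most evenly and Glul among the least evenly carried genes among the SGC clusters of the naïve library, as described below, and the 250 bases before their start sites are shown for that reason, a choice made after the values were seen. The sequences are from RefSeq (GRCm38.p6), written 5′ to 3′ on the strand of the gene, at chr1:172340960-172341209 (plus strand) for Kcnj10 and chr1:153899679-153899928 (plus strand) for Glul. Capitals mark the letters CCAAT or, for the other strand, ATTGG, a box found in many promoters.
Kcnj10: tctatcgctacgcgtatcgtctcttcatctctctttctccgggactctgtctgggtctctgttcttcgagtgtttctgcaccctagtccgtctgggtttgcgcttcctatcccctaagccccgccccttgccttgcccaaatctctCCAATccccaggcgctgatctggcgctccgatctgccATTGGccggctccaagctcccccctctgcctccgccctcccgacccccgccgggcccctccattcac
Glul: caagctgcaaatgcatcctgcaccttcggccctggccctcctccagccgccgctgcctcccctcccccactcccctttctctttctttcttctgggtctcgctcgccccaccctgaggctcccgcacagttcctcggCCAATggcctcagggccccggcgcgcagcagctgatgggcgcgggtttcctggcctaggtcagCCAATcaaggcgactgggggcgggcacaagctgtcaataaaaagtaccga
The Kcnj10 window held the box at 104 and 67 bases before the start site, and its GC content was 62%. The Glul window held it at 113 and 50 bases before the start site, and its GC content was 64.8%. Of the 6 windows listed for these genes (1 each for Kcnj10, Glul, Slc1a3 and Slc1a2, and 2 for Slc4a4), 4 held the box on either strand, against 33.85% of all 32851 windows of the same length, whose median GC content was 52.4%. The letters ACAAAG and ACAATG, cores of the sites that SOX factors bind, were in none of the 6 windows on either strand, against 16.46% and 10.69% of all windows. The Slc1a2 window (chr2:102706188-102706437) and the 2 Slc4a4 windows lay within the gene spans given above, and Atp1b2 had no window. The counts thus describe the listed windows, not the promoters of all 6 genes. These matches describe letters only, and no binding was measured.

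Cells were captured in droplets, and reads were collapsed by molecular identifiers (UMIs) at the 3′ end of transcripts. The libraries held 3748, 3281 and 4908 barcodes with 23107376, 22343246 and 36550911 UMIs (naïve, day 7 and day 14, the order used for all lists of 3 values), and shared 1 (naïve and day 7), 6 (naïve and day 14) and 2 barcodes (day 7 and day 14). After removal of cells with fewer than 500 genes or more than 20% mitochondrial UMIs, and of 90 doublet calls, 9572 cells remained and were clustered without the 6 genes. The classes named from markers with at least 20 cells in every library were 9, and these are the ones reported. They include 848, 527 and 740 SGC-like cells. These held 12908, 13224 and 11629.6 counts per 1000000 UMIs (CPM) of 8 SGC markers such as Fabp7, summed, against 471 CPM in all other cells. Their median depth was 4834, 6796 and 6671.5 UMIs, and their median mitochondrial share was 12.8%, 14.8% and 15.3%. Levels are given as CPM of the class with the exact 95% Poisson interval, and ratios as log2 of the CPM ratio with the exact 95% interval in parentheses. Both cover counting error only, and cells with several UMIs of a gene make the true spread wider.

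**Figure D1:**
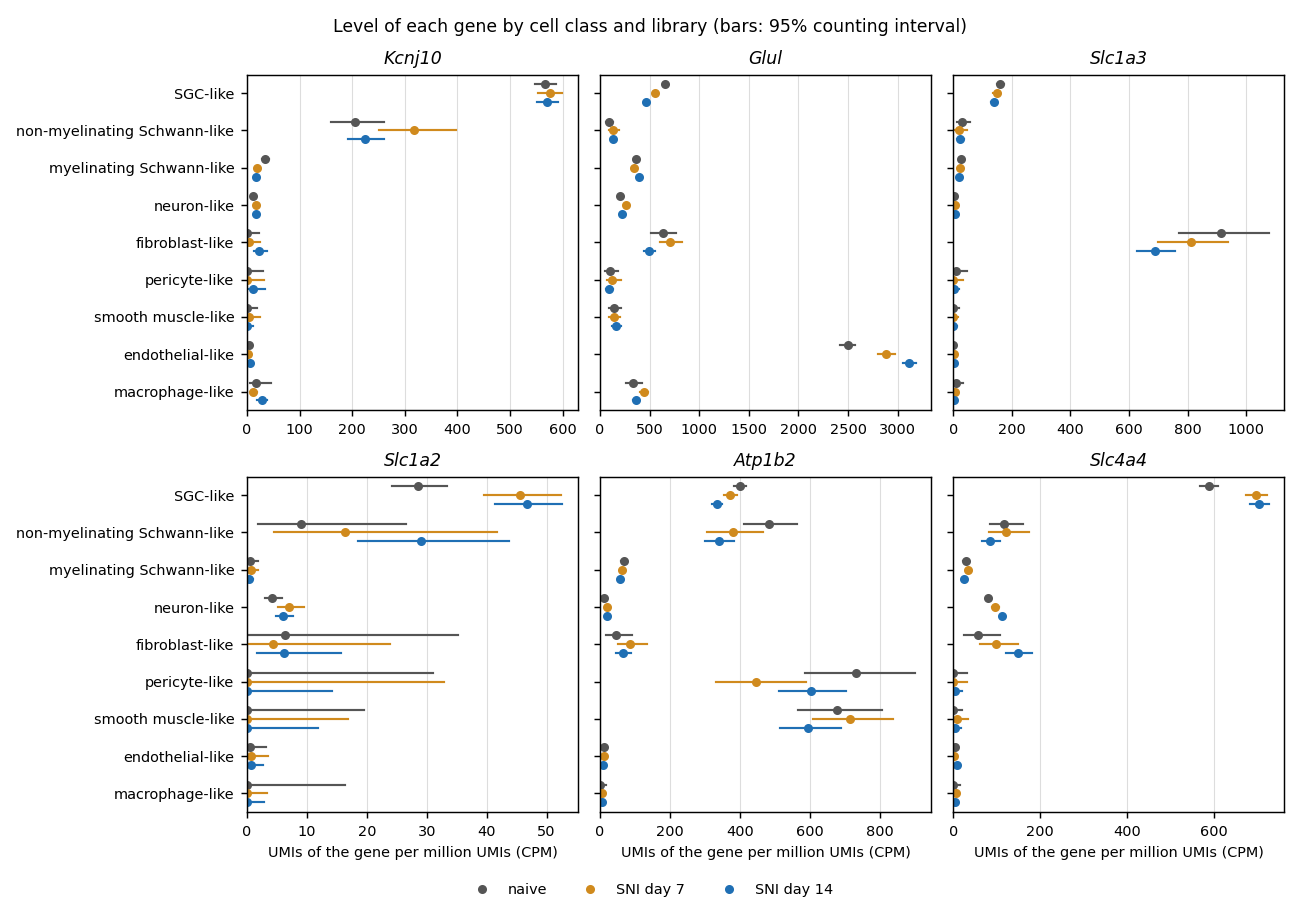
Level of the 6 genes by cell class and library (points: CPM, UMIs of the gene per 1000000 UMIs of the class; bars: 95% Poisson interval, counting error only; 1 library per colour, linear axes that differ between genes). Among the classes drawn, Kcnj10, Slc1a2 and Slc4a4 were highest in SGC-like cells. Glul was highest in endothelial-like, Slc1a3 in fibroblast-like and Atp1b2 in pericyte-like or smooth muscle-like cells.

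Of the 6 genes, 3 were glial in the sense that SGC-like cells had the highest level of the 9 classes in every library, namely Kcnj10, Slc1a2 and Slc4a4, whereas Glul, Slc1a3 and Atp1b2 were higher in a class that is not glial. The plot of levels by class shows this order. At an equal depth of 1500 UMIs per cell, an SGC-like cell showed on average 1.95, 1.96 and 1.86 of the 6 genes, a fibroblast-like cell 1.38, 1.48 and 1.35, and a non-myelinating Schwann-like cell 1.03, 1.08 and 1.03. In the 16, 18 and 27 neutrophil-like cells, a reference that should lack them, 5 of the genes had no UMI and Glul had 1, 2 and 4. A count of 3 UMIs, the limit that a count of 0 allows, would be 78.6, 58.8 and 44.4 CPM in so few cells, so endothelial-like cells give the sharper reference below. The T or NK-like cells, also planned as a reference, numbered only 10, 31 and 45. By library they ran from 0 up to 13.0 CPM of Kcnj10, 6.49 CPM of Slc1a3 and 17.5 CPM of Atp1b2. These upper values lay within the ranges of neuron-like cells for the same genes.

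Kcnj10, the potassium channel, was the gene most concentrated in SGCs. Its level in SGC-like cells was 567, 576 and 571 CPM, and these cells held 90.4%, 87.6% and 84.2% of all its UMIs with 25.7%, 22.1% and 18.4% of the UMIs of all genes. A Kcnj10 UMI was found in 84.4%, 91.8% and 90.5% of SGC-like cells, and in 55.0%, 56.0% and 54.0% at 1500 UMIs per cell. In endothelial-like cells, of 3925, 4934 and 5842 median UMIs, the share was 2.03%, 1.45% and 3.65% and the level 3.98, 2.53 and 5.13 CPM, taken as the reference for free RNA. Next came non-myelinating Schwann-like cells with 206, 318 and 224 CPM, apart from SGC-like cells and from all other classes beyond the intervals. Myelinating Schwann-like cells had 34.9, 19.6 and 18.1 CPM, macrophage-like cells, a class that includes a cluster led by Cd209a and Ccr2, 17.8, 11.6 and 28.3 CPM and neuron-like cells 11.2, 17.9 and 18.0 CPM, and the order of these 3 differed between libraries, with intervals that overlapped in part. The high number of neuron-like cells with a Kcnj10 UMI (46, 40 and 75 of 122, 80 and 136 cells) went with their median depth of 70214.5, 72490 and 81746.5 UMIs, and at 1500 UMIs it was 2.92%, 3.88% and 4.38%.

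Atp1b2, the pump subunit, had a level of 399.7, 372 and 334 CPM in SGC-like cells and was not highest there. Pericyte-like cells, contractile cells of small vessels, had 730.1, 446 and 601 CPM, and smooth muscle-like cells 676, 714 and 595 CPM. Both stood above SGC-like cells in the naïve library (intervals 585 to 901 and 564 to 804 CPM against 383 to 417 CPM), while at day 7 the pericyte-like interval (331 to 587 CPM) overlapped that of SGC-like cells. Non-myelinating Schwann-like cells had 482, 379 and 340.4 CPM, with intervals that overlapped those of SGC-like cells in every library. In endothelial-like cells the Atp1b2 level was 10.8, 10.1 and 8.06 CPM, and neuron-like cells had 11.4, 20.6 and 19.0 CPM. An unnamed cluster led by Casq2 and Nrgn (28, 22 and 30 cells), not among the classes reported, ran from 755 to 1100 CPM by library.

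Slc1a3, the glutamate transporter GLAST, was at 161, 148 and 139.9 CPM in SGC-like cells, with a UMI in 45.0%, 50.9% and 46.9% of them and in 0.338%, 0.966% and 1.82% of endothelial-like cells. Fibroblast-like cells, recognised by Dcn, Lum and collagen genes, had 915, 812 and 689 CPM and a UMI in 75.0%, 80.4% and 81.0% of 64, 56 and 142 cells. Their level was thus above that of SGC-like cells in each library, with intervals far apart. The SGC markers Scrg1, Ptprz1 and Bcan were at 0 in the fibroblast-like cells of the naïve and day 7 libraries, and all 8 SGC markers summed to 114, 112 and 510.3 CPM. No other class exceeded 30.3 CPM of Slc1a3, and endothelial-like cells had 0.569, 1.27 and 2.56 CPM.

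Slc1a2, the glutamate transporter GLT-1, had few UMIs everywhere, 154, 198 and 275 in SGC-like cells, or 28.5, 45.6 and 46.8 CPM. Non-myelinating Schwann-like cells followed with 9.09, 16.3 and 29.1 CPM from 3, 4 and 23 UMIs, and neuron-like cells had 4.24, 7.08 and 6.09 CPM. No Slc1a2 UMI was found in pericyte-like, smooth muscle-like, macrophage-like or neutrophil-like cells of any library. A count of 0 allows up to 2.29 CPM in the macrophage-like cells of day 14 and up to 26.7 CPM in the pericyte-like cells of day 7. With so few UMIs the intervals of SGC-like and non-myelinating Schwann-like cells overlapped in every library, as 41.4 to 52.6 and 18.4 to 43.7 CPM did at day 14.

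By RNA level, Glul, glutamine synthetase, was the gene least particular to glia. Protein was not measured in these libraries. SGC-like cells had 653, 552 and 459 CPM, whereas endothelial-like cells had 2494, 2887 and 3115 CPM and a Glul UMI in 88.5%, 90.8% and 89.7% of cells at a depth below that of SGC-like cells. The endothelial markers Pecam1 and Cdh5 defined these cells, and the 8 SGC markers summed to 97.2, 77.8 and 139 CPM in them. Fibroblast-like cells had 631, 709 and 492 CPM, myelinating Schwann-like cells 362, 342 and 388 CPM, macrophage-like cells 333, 438 and 360.5 CPM and neuron-like cells 203, 258 and 226 CPM. SGC-like and fibroblast-like cells overlapped in their intervals in the naïve and day 14 libraries. SGC-like cells held 30.6%, 21.5% and 15.1% of all Glul UMIs and endothelial-like cells 38.1%, 40.9% and 47.6%, from 8.38%, 8.05% and 8.54% of the UMIs of all genes.

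Slc4a4, the bicarbonate cotransporter, was at 589.7, 699 and 705 CPM in SGC-like cells, which held 78.2%, 76.5% and 69.0% of its UMIs. The next classes were far lower, with 118, 122 and 84.8 CPM in non-myelinating Schwann-like, 80.8, 96.6 and 113 CPM in neuron-like and 56.8, 98.8 and 149 CPM in fibroblast-like cells, whose intervals overlapped one another in the naïve library. Endothelial-like cells had 3.41, 1.90 and 8.06 CPM.

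The SGC-like cells fell into 4 clusters that differed widely in these genes, and the members had not been used to form the clusters. The first was led by Egr3 and Ednrb (345, 242 and 360 cells), the others by Hes5 and Aqp4 and rich in Fabp7 (177, 124 and 125 cells), by Fhdc1 and Lgr5 (164, 122 and 228 cells), and by interferon-response genes (162, 39 and 27 cells). The Fhdc1 and Lgr5-led cluster counted as Fabp7-led under the naming rule only by a small margin. The median depth was 3640, 4605.5 and 4787.5 UMIs in the Egr3 and Ednrb-led cluster and 8857, 11202.5 and 10956 UMIs in the Hes5 and Aqp4-led cluster. The 8 SGC markers summed to 7276, 7491 and 6413 CPM in the former and 19312, 20475 and 19724 CPM in the latter, while 9 markers of myelinating Schwann cells summed to 5076, 4353 and 4659 CPM and 1638, 1767 and 2039 CPM. Their part in the differences below was not tested.

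**Figure D2:**
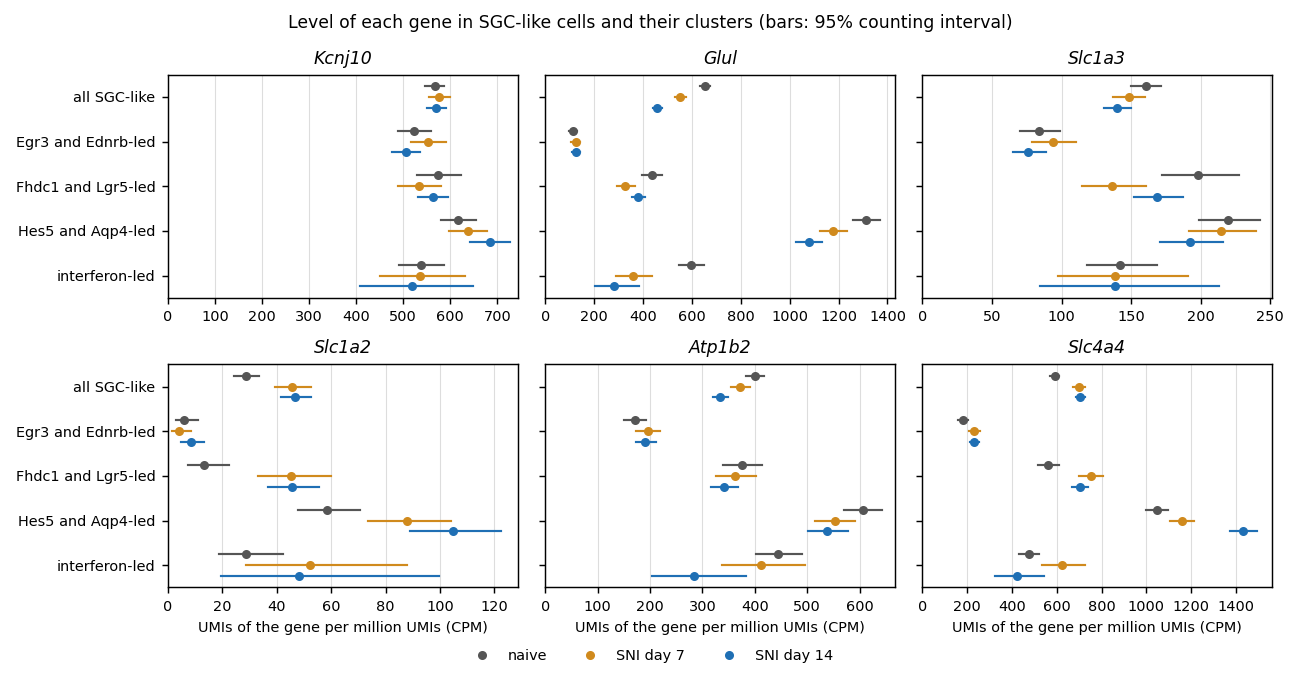
Level of the 6 genes in all SGC-like cells and in each of their 4 clusters (points: CPM by library; bars: 95% Poisson interval, counting error only; linear axes that differ between genes). Kcnj10 lay between 505 and 684 CPM in every cluster and library, whereas Glul ran from 114 to 1313 CPM.

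Kcnj10 was nearly even among the clusters. Its naïve level was 523 CPM in the Egr3 and Ednrb-led, 575 CPM in the Fhdc1 and Lgr5-led, 617 CPM in the Hes5 and Aqp4-led and 537 CPM in the interferon-led cluster. The Hes5 and Aqp4-led cluster was 1.18-fold (1.08 to 1.29) above the Egr3 and Ednrb-led cluster in the naïve library, 1.15-fold (1.05 to 1.26) at day 7 and 1.35-fold (1.24 to 1.48) at day 14. The other 5 genes were at least 1.5-fold higher in the Hes5 and Aqp4-led cluster in every library, against 11.1%, 11.0% and 10.3% of all genes tested between these clusters. That background includes the genes that defined the clusters.

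Setting Slc1a2 aside, Glul differed most of the 6 genes between the Hes5 and Aqp4-led and the Egr3 and Ednrb-led cluster in every library. The Slc1a2 difference was smaller than that of Glul in the naïve library (9.74-fold) and larger at day 7 (22.7-fold) and day 14 (12.6-fold), with wide intervals. Glul was at 114, 124 and 126 CPM in the Egr3 and Ednrb-led cluster, 436, 328 and 381 CPM in the Fhdc1 and Lgr5-led cluster and 1313, 1178 and 1079 CPM in the Hes5 and Aqp4-led cluster, with no overlap of the intervals within a library. The Hes5 and Aqp4-led cluster was 11.5-fold (9.91 to 13.4) above the Egr3 and Ednrb-led cluster in the naïve library, 9.51-fold (8.19 to 11.1) at day 7 and 8.60-fold (7.55 to 9.82) at day 14. At 1500 UMIs per cell, a Glul UMI was found in 80.7%, 76.9% and 75.2% of Hes5 and Aqp4-led cells and in 16.1%, 15.7% and 15.9% of Egr3 and Ednrb-led cells, so the difference held at equal depth.

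Slc4a4 followed the same order, with 181, 232 and 231 CPM in the Egr3 and Ednrb-led, 563, 751 and 703 CPM in the Fhdc1 and Lgr5-led and 1047, 1157 and 1433 CPM in the Hes5 and Aqp4-led cluster, a naïve difference of 5.79-fold (5.13 to 6.57) between the first and the last. Atp1b2 had 171, 196 and 191 CPM, 376, 363 and 342 CPM and 606, 553 and 539 CPM in these clusters, a naïve difference of 3.55-fold (3.12 to 4.06). The glutamate transporters were also higher in the Hes5 and Aqp4-led cluster. Slc1a3 had 83.8, 93.6 and 76.0 CPM in the Egr3 and Ednrb-led and 219.8, 215 and 192 CPM in the Hes5 and Aqp4-led cluster, a naïve difference of 2.62-fold (2.16 to 3.20). Slc1a2, with 10 naïve UMIs in the Egr3 and Ednrb-led cluster, had 5.98, 3.87 and 8.34 CPM there and 58.3, 87.8 and 105 CPM in the Hes5 and Aqp4-led cluster, a naïve difference of 9.74-fold (5.09 to 20.9). For Slc1a3 the Fhdc1 and Lgr5-led cluster did not differ from the Hes5 and Aqp4-led cluster beyond counting error in the naïve library (1.11-fold, 0.934 to 1.32).

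The comparison with the injured libraries asked whether SGCs altered these genes after the injury. Both injured libraries were set against the same naïve library, so an error in that library would move both ratios. Of the 6 genes, 1 was at least 1.5-fold higher at day 7 (background 2.26% of 10175 genes tested) and the same gene, Slc1a2, was so at day 14 (background 4.73% of 10483 genes). None was at least 1.5-fold lower at either time (background 2.46% and 3.19%). The median log2 ratio of the 6 genes was -0.04 at day 7 and -0.09 at day 14, beside -0.01 and 0.01 over all genes tested.

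Kcnj10 was level across the libraries. Its 567, 576 and 571 CPM gave a log2 ratio over naïve of 0.02 (-0.05 to 0.10) at day 7 and 0.01 (-0.06 to 0.08) at day 14, and both intervals lay well inside 1.5-fold either way. Within the clusters, the interval of Kcnj10 excluded 0 only in the Hes5 and Aqp4-led cluster at day 14, with 0.15 (0.02 to 0.27).

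In SGC-like cells Glul was lower after injury, at both times, with a log2 ratio of -0.24 (-0.32 to -0.17) at day 7 and -0.51 (-0.58 to -0.43) at day 14. Its share of cells, however, was 60.1%, 66.0% and 66.6% as sequenced and 39.2%, 35.4% and 33.8% at equal depth. The mix of clusters differed between the libraries at the same time. The Hes5 and Aqp4-led cluster, highest in Glul, held 33.0%, 34.6% and 25.0% of the SGC-like UMIs, and the Fhdc1 and Lgr5-led cluster 19.3%, 23.5% and 35.8%. The interferon-led cluster held 16.7%, 6.16% and 2.46%, so it was mostly a part of the naïve library. With the mix held at that of the naïve library, a calculation added after the data were seen, the ratio was -0.24 at day 7 and -0.34 at day 14. Within the Hes5 and Aqp4-led cluster the ratios were -0.16 (-0.25 to -0.07) and -0.28 (-0.38 to -0.19), and within the Fhdc1 and Lgr5-led cluster -0.41 (-0.62 to -0.20) and -0.19 (-0.36 to -0.03). The interferon-led cluster had -0.73 (-1.06 to -0.41) and -1.07 (-1.57 to -0.61), past 1.5-fold lower as were 10.5% and 16.9% of all genes tested in these few cells. In the Egr3 and Ednrb-led cluster the intervals of both ratios included 0, with 0.12 (-0.18 to 0.41) and 0.14 (-0.14 to 0.41).

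**Figure D3:**
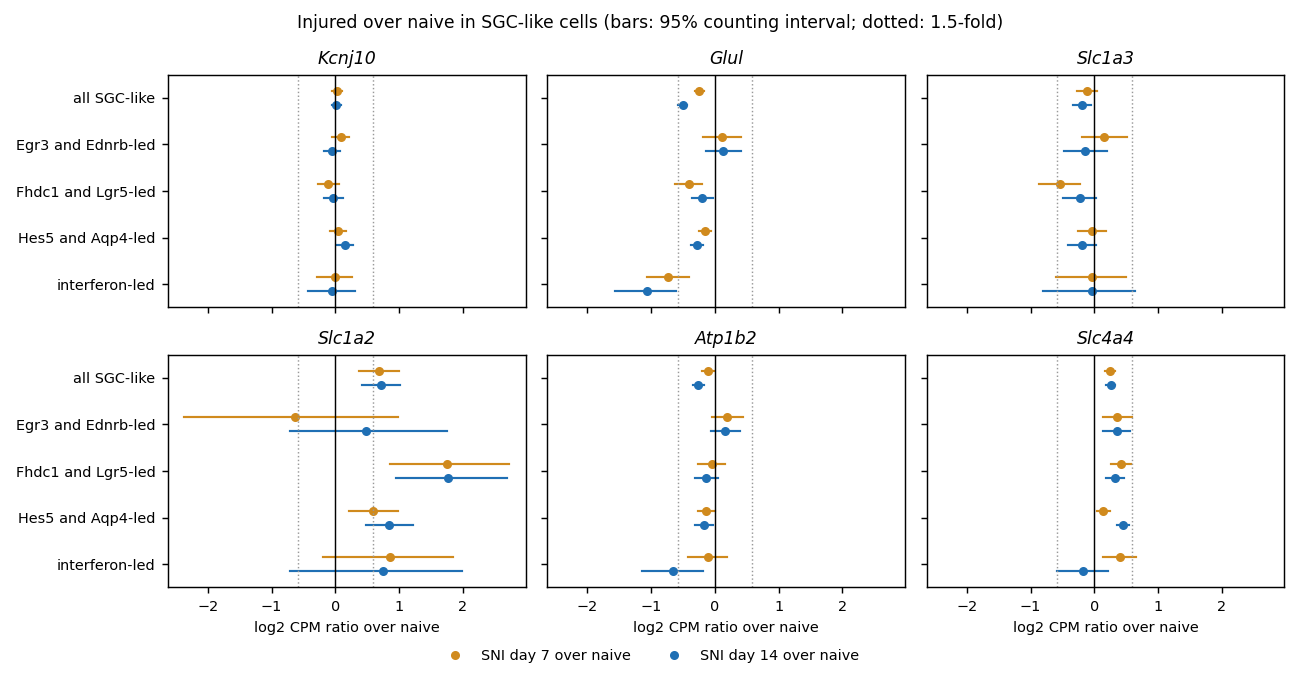
Log2 CPM ratio of each gene over the naïve library in all SGC-like cells and in their 4 clusters (points: day 7 and day 14; bars: exact 95% interval, counting error only; dotted lines: 1.5-fold either way). In all SGC-like cells, Slc1a2 lay to the right of the dotted line at both times, Kcnj10 lay on 0 and Glul lay left of 0 but inside the dotted line.

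Slc1a2 was higher after injury. Its SGC-like level of 28.5, 45.6 and 46.8 CPM gave a log2 ratio of 0.68 (0.37 to 0.99) at day 7 and 0.71 (0.42 to 1.01) at day 14. As sequenced, a UMI was found in 13.7%, 20.7% and 20.4% of SGC-like cells, against 0.338%, 0.483% and 0.608% of endothelial-like cells. At equal depth the SGC-like share was 3.28%, 4.89% and 4.999%. The Fhdc1 and Lgr5-led cluster differed most, from 14 UMIs and 13.4 CPM in the naïve library to 45.1 and 45.5 CPM, with log2 ratios of 1.75 (0.86 to 2.73) and 1.76 (0.95 to 2.69). In that cluster 3.63% and 6.66% of all genes were at least 1.5-fold higher. The Hes5 and Aqp4-led cluster had 0.59 (0.21 to 0.98) and 0.84 (0.48 to 1.22), beside 2.79% and 4.60% of all genes. The Egr3 and Ednrb-led cluster had 10, 6 and 18 UMIs and ratios whose intervals included 0.

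Slc4a4 was also higher, by less than 1.5-fold, with a log2 ratio of 0.24 (0.17 to 0.32) at day 7 and 0.26 (0.19 to 0.33) at day 14. The Egr3 and Ednrb-led cluster had 0.36 (0.14 to 0.59) and 0.35 (0.14 to 0.56), the Fhdc1 and Lgr5-led cluster 0.42 (0.26 to 0.57) and 0.32 (0.18 to 0.46), and the Hes5 and Aqp4-led cluster 0.14 (0.05 to 0.24) and 0.45 (0.36 to 0.54). Slc4a4 was the only one of the 6 genes for which these 3 clusters all lay on the same side of 0 beyond counting error at both times.

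Atp1b2 and Slc1a3 were somewhat lower. Atp1b2 had a log2 ratio of -0.10 (-0.20 to -0.01) at day 7 and -0.26 (-0.35 to -0.17) at day 14, and Slc1a3 had -0.11 (-0.26 to 0.03) and -0.20 (-0.34 to -0.06), where the interval at day 7 included 0. The day 7 interval of Atp1b2 reached 0 under other totals (-0.19 to 0.00095 with median-ratio size factors, -0.17 to 0.02 without mitochondrial UMIs) and without the interferon-led cluster (-0.18 to 0.02). Within the Egr3 and Ednrb-led cluster neither gene had an interval that excluded 0, and Atp1b2 was at 171, 196 and 191 CPM there. In the Fhdc1 and Lgr5-led cluster Slc1a3 had -0.54 (-0.86 to -0.23) and -0.23 (-0.48 to 0.02), and in the interferon-led cluster Atp1b2 had -0.11 (-0.43 to 0.20) and -0.65 (-1.15 to -0.18). In the Hes5 and Aqp4-led cluster Atp1b2 had -0.13 (-0.27 to -0.0015) and -0.17 (-0.30 to -0.04), and Slc1a3 had -0.03 (-0.25 to 0.18) and -0.19 (-0.42 to 0.03). The median mitochondrial share of SGC-like cells was higher in the injured libraries, and leaving mitochondrial UMIs out of the total moved every log2 ratio by 0.03. Its further part in these differences was not tested. Between the injured libraries, the day 14 over day 7 ratio had an interval below 0 for Glul, at -0.26 (-0.34 to -0.18), and Atp1b2, at -0.15 (-0.25 to -0.06), and intervals that included 0 for the other 4 genes.

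A list of 55 other genes of potassium and pump function, of glutamate, glutamine and GABA handling, and of pH regulation set the 6 genes in context, and all 55 were present in the tables. In SGC-like cells 37 of them reached the 50 UMIs needed for a ratio. None was at least 1.5-fold higher at either time, 1 was at least 1.5-fold lower at day 7 (Fxyd6, from 77 to 41 UMIs) and none at day 14. Fxyd6 was at 14.3 CPM in the naïve library and 9.45 CPM at day 7, a log2 ratio of -0.59 (-1.18 to -0.03). At day 14 its interval included 0, at 0.24 (-0.21 to 0.69). The interval lay above 0 for 5 and below 0 for 7 of the 37 at day 7, and above 0 for 8 and below 0 for 9 at day 14. The median log2 ratio of the 37 was -0.08 at day 7 and close to 0 at day 14.

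Among the genes of potassium and pump function, those at the highest levels included Fxyd1 (phospholemman), a regulator of the pump, and Dag1 (dystroglycan), part of the complex that holds Kir4.1 at the glial membrane. Fxyd1 was at 1353, 1250.3 and 1221 CPM and Dag1 at 896, 928 and 958 CPM, with log2 ratios at day 14 of -0.15 (-0.19 to -0.10) and 0.10 (0.04 to 0.15). Of the glutamate list, they included Slc38a2, a transporter of glutamine and other neutral amino acids, at 167, 156 and 151 CPM, and Slc1a4, a carrier of small neutral amino acids, at 109, 93.5 and 78.4 CPM. Slc1a4 was lower at both times, with -0.22 (-0.40 to -0.03) and -0.47 (-0.65 to -0.29). Of the pH list, they were Slc9a3r1 (NHERF1), a scaffold of ion exchangers, at 565, 582 and 513 CPM, Slc16a1 (MCT1), a lactate carrier, at 92.1, 86.4 and 72.6 CPM, and Slc4a2, an anion exchanger, at 58.0, 66.1 and 68.2 CPM. Between the SGC-like clusters of the naïve library, 12 of the 34 list genes tested were at least 1.5-fold higher in the Hes5 and Aqp4-led than in the Egr3 and Ednrb-led cluster and 8 were lower, beside 11.1% and 21.2% of all genes. The lower ones included Fxyd1, at 821 against 1722 CPM, and Dag1, at 556 against 1360.1 CPM.

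**Figure D4:**
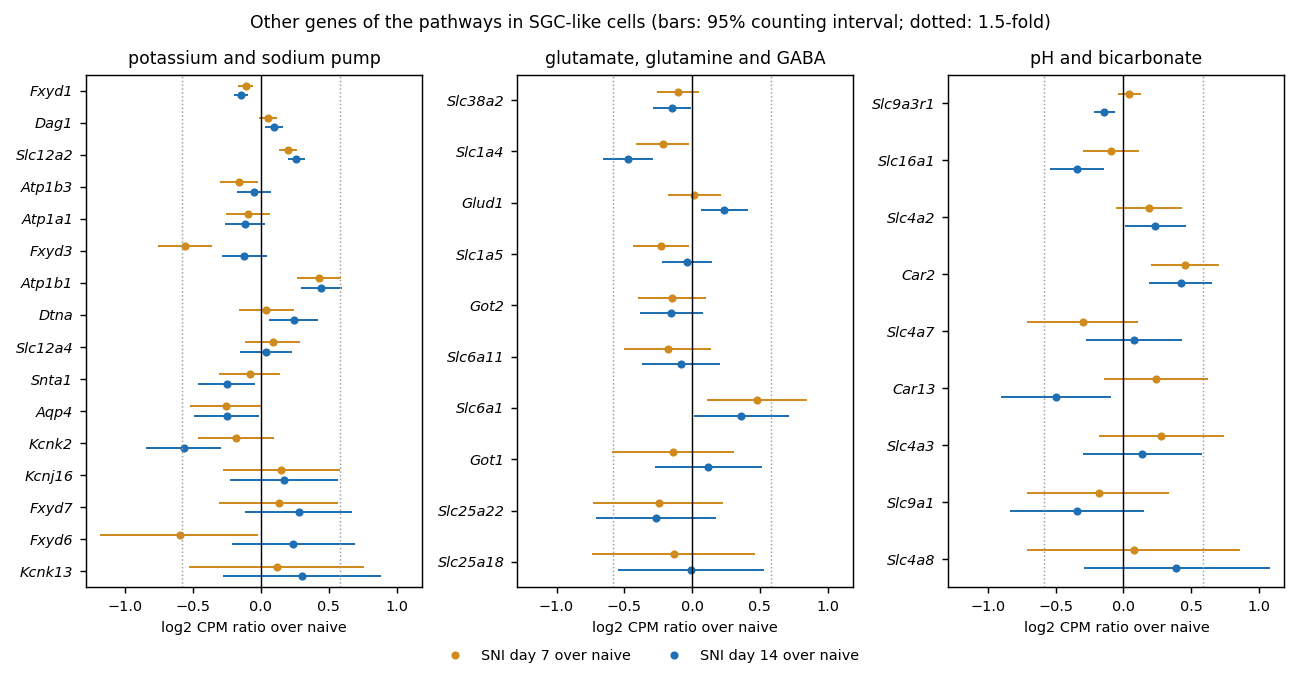
Log2 CPM ratio over the naïve library in SGC-like cells for 35 of the 37 list genes with at least 50 UMIs, in 3 panels by function and ordered by naïve level (points: day 7 and day 14; bars: exact 95% interval, counting error only; dotted lines: 1.5-fold). Among the genes drawn, Fxyd6 at day 7 alone lay beyond a dotted line.

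Outside SGCs, Kcnj10 was lower after injury in myelinating Schwann-like cells, with 137, 91 and 120 UMIs, 34.9, 19.6 and 18.1 CPM and log2 ratios of -0.84 (-1.23 to -0.44) and -0.95 (-1.31 to -0.58). It was the 1 of 5 genes tested there that was at least 1.5-fold lower at each time, beside 2.15% and 2.81% of all genes, and none was 1.5-fold higher (2.11% and 3.92%). Most of its UMIs came from a cluster led by Npr3 and Mpp6, with 116, 56.9 and 55.7 CPM and ratios of -1.03 (-1.49 to -0.57) and -1.06 (-1.48 to -0.65), in 53 naïve cells with a UMI. The 8 SGC markers summed to 479, 417 and 437 CPM in that cluster, and their part in the result was not tested. With the mix of clusters held at naïve the class had -0.80 and -0.83. In non-myelinating Schwann-like cells Kcnj10 was higher at day 7, at 0.63 (0.14 to 1.12), the 1 of 4 genes tested past 1.5-fold (background 4.42%), and at day 14 its interval included 0, at 0.12 (-0.29 to 0.55). Atp1b2 in the same cells was lower at day 14, at -0.50 (-0.79 to -0.21).

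The mix of non-myelinating Schwann-like cells differed between the libraries, however. A cluster led by Tnc and Timp1 (6, 5 and 40 cells) held 6.47%, 7.97% and 34.3% of the UMIs of the class, and the rest belonged to a cluster led by Rasgef1c and Scn7a (154, 91 and 173 cells). In the Rasgef1c and Scn7a-led cluster Kcnj10 was at 217, 337 and 299 CPM, higher at both times, with 0.63 (0.14 to 1.13) and 0.46 (0.04 to 0.90). Atp1b2 was at 476, 403 and 464 CPM there, with -0.24 (-0.63 to 0.15) and -0.04 (-0.34 to 0.27), so that both intervals included 0. In the Tnc and Timp1-led cluster Atp1b2 was at 562, 102 and 103 CPM from 12, 2 and 28 UMIs and Kcnj10 at 46.8, 102 and 81.1 CPM from 1, 2 and 22 UMIs. With the mix held at naïve, the day 14 ratio of the class was 0.47 for Kcnj10 and -0.13 for Atp1b2. The lower Atp1b2 level of the class at day 14 was thus not seen beyond counting error in its main cluster.

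In neuron-like cells taken as 1 class, all 6 genes had ratios above 0 in both injured libraries, with an interval that included 0 for Slc1a2 at day 14 alone. At day 7, 4 of them (Kcnj10, Slc1a3, Slc1a2 and Atp1b2) were at least 1.5-fold higher, beside 6.69% of all genes, and at day 14, 3 of them (Kcnj10, Slc1a3 and Atp1b2), beside 11.4%. Kcnj10 had log2 ratios of 0.68 (0.27 to 1.09) and 0.68 (0.33 to 1.04), Slc1a3 0.87 (0.12 to 1.64) and 1.06 (0.42 to 1.75), and Atp1b2 0.85 (0.46 to 1.24) and 0.73 (0.39 to 1.09). The sum of the 8 SGC markers in neuron-like cells moved with them, at 363, 564 and 527 CPM, with 7 or 8 of the markers detected and Scrg1 at 0 after injury, and its part in the result was not tested. Levels of the 6 genes in neuron-like cells stayed far under those of SGC-like cells for all but Glul, as in the plot of levels by class. Glul, at 203, 258 and 226 CPM, had ratios of 0.34 (0.24 to 0.44) and 0.15 (0.06 to 0.24), and Slc4a4 had 0.26 (0.10 to 0.42) and 0.48 (0.35 to 0.61).

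These class values compare different mixes of neurons. Neuron-like cells led by Sprr1a and Sez6l, the former a gene known to be induced in injured neurons, numbered 2, 16 and 29 and held 2.02%, 16.9% and 20.7% of the UMIs of the class, while cells led by C1ql4 and Th numbered 38, 11 and 15, cells led by Mrgprd and Gm765 37, 26 and 24, cells led by Zcchc12 and Pou4f3 38, 23 and 53, and cells led by Il31ra and Nppb 7, 4 and 15. With the mix held at naïve, the Glul ratio was -0.046 at day 7 and -0.0036 at day 14, so the higher Glul level of the class was not kept. Within the clusters Glul had 0.03 (-0.22 to 0.27) and -0.22 (-0.42 to -0.02) in Zcchc12 and Pou4f3-led cells, -0.17 (-0.36 to 0.01) and 0.12 (-0.04 to 0.28) in Mrgprd and Gm765-led cells, and -0.05 (-0.28 to 0.18) and 0.0022 (-0.19 to 0.19) in C1ql4 and Th-led cells. Its level in Sprr1a and Sez6l-led cells was 628 CPM at day 7 and 356 CPM at day 14.

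Kcnj10 with the mix of neurons held at naïve had 0.45 and 0.46, still above 0 but under 1.5-fold. Its ratios lay on both sides of 0 in the clusters. Kcnj10 had -0.05 (-0.69 to 0.59) and -0.49 (-1.03 to 0.05) in Zcchc12 and Pou4f3-led cells, 0.79 (-0.25 to 1.84) and 1.18 (0.29 to 2.14) in Mrgprd and Gm765-led cells, and 1.11 (-0.02 to 2.22) and 1.21 (0.26 to 2.19) in C1ql4 and Th-led cells. Atp1b2, at 0.71 and 0.53 with the mix held, was lower at day 14 in the Zcchc12 and Pou4f3-led cells, at -0.57 (-1.07 to -0.07), and higher in the Mrgprd and Gm765-led cells, at 1.44 (0.48 to 2.49), and the C1ql4 and Th-led cells, at 1.36 (0.49 to 2.26). Slc1a3 had 0.94 and 0.98 with the mix held, Slc1a2 0.70 and 0.31, and Slc4a4 0.27 and 0.36.

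Glul in endothelial-like cells was higher after injury, by less than 1.5-fold, with log2 ratios of 0.21 (0.15 to 0.27) and 0.32 (0.27 to 0.37). Its level differed between the clusters of that class. Cells led by Fabp4 and Bmp4 (15, 9 and 18 cells) had only 85.6 to 428 CPM. Cells led by Dkk2 and Vegfc (41, 47 and 79 cells) had 4267, 4729.9 and 5687 CPM, and cells led by Car4 and Gpihbp1 (240, 151 and 232 cells) had 2297, 2434 and 2185 CPM. At day 14 the ratio over naïve was 0.41 (0.32 to 0.51) in the former and -0.07 (-0.14 to -0.01) in the latter. The former held 13.9%, 21.7% and 28.4% of the UMIs of the class, and with the mix held at naïve the ratio of the class was 0.09 at day 7 and 0.05 at day 14. Summed over all cells of a library, Glul stood at 548, 568 and 559 CPM, so that its lower level in SGC-like cells was not seen in the pooled cells, and Kcnj10 stood at 161, 145 and 125 CPM while the SGC-like share of cells was 27.2%, 19.9% and 19.5%.

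In fibroblast-like cells Slc1a3 was lower at day 14 than in the naïve library, at -0.41 (-0.68 to -0.13), and its interval at day 7 included 0, at -0.17 (-0.49 to 0.15). Slc4a4 rested on 9, 23 and 97 UMIs there and had 1.39 (0.41 to 2.56) at day 14, the 1 of 3 genes tested past 1.5-fold (background 12.0%). The SGC marker sum in these cells was higher at day 14 too, as given above, and its part was not tested. Glul had -0.36 (-0.69 to -0.02) at day 14. In pericyte-like cells Atp1b2 was lower at day 7, at -0.71 (-1.24 to -0.19), the only gene of the 6 tested there (background 10.1%), with 87 and 50 UMIs, and its interval at day 14 included 0, at -0.28 (-0.67 to 0.12).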

How the data were processed

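Single cells of mouse L3 and L4 DRGs were measured in 3 libraries, and no sample was left out. The authors deposited raw UMI counts per gene and cell, without normalization. The submitters' processing notes name Cell Ranger 3.0.2 and the build mm10, and further settings are not given in the sources used here. The experiments with rats, LPS and immunohistochemistry were not analysed here.

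Cells were dropped below 500 genes or above 20% mitochondrial UMIs, and Scrublet calls (scanpy 1.11.5, prior rate 5%, run by library, 0.931% of cells) were removed. After log scaling to a depth of 10000, the 2000 most variable genes, leaving out the 6 genes, the list genes and Gfap, gave 30 principal components, 15 neighbours and, with leidenalg 0.10.2 (resolution 1), 32 clusters. Names needed 3 markers in 20% of a cluster, each 1.5 times above other cells. A cluster stayed unnamed (319 cells in all) where its 10 leading genes favoured another class or, a rule added after the clusters were seen, held no marker of its class while that class led the next by less than 1.5 times. A cluster far shallower than the other cells of its libraries was also left unnamed where its leading genes held no marker of its class. The unnamed cells included a cluster led by Serpinb1a and Asns with 9, 149 and 12 cells (naïve, day 7 and day 14), so this loss fell mostly on day 7. Since the names were rebuilt, the authors' own may differ. The SGC-like clusters were told apart by Fabp7, by Egr3 and Ednrb, or by 8 interferon-response genes.

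UMIs were summed per class and library and divided by the class total to give CPM. Intervals are exact at 95% (Poisson for levels, conditional binomial for ratios), and a count of 0 is given with a limit of 3 counts. Shares were also computed with each cell thinned to 1500 UMIs, leaving out 40, 3 and 12 shallower SGC-like cells. Genes with at least 50 UMIs in the 2 libraries compared were counted past 1.5-fold as background. The scripts were tested on simulated data modelled on SGC-like cells at day 7 over naïve. Of 200 genes changed 2-fold, 197 were recovered. Among the unchanged genes, 143 also passed 1.5-fold, and the coverage of the 95% intervals was 93%. Named by rule were the 6 genes in every class with at least 20 cells in each library, list genes at least 1.5-fold different in the same direction at both times and in 20% of cells (none qualified), the 3 highest of each list (2 of these are not reported here and not drawn, though counted), and the 3 genes most like each of the 6. The 6 genes, the lists and the markers were chosen with earlier results of these data known.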

Additional observations from a re-analysis of the deposited data

Results flagged for a closer look

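In 3 of the 6 genes the ratio over naïve, taken over a whole class, lay on opposite sides of 0 in different classes, beyond counting error at both times. The difference between the classes was not tested, because each condition has 1 library. Kcnj10 was lower in myelinating Schwann-like cells, with a log2 ratio of -0.84 (-1.23 to -0.44) at day 7 and -0.95 (-1.31 to -0.58) at day 14, and higher in neuron-like cells, with 0.68 (0.27 to 1.09) and 0.68 (0.33 to 1.04). Glul was lower in SGC-like cells, with -0.24 (-0.32 to -0.17) and -0.51 (-0.58 to -0.43), and higher in neuron-like cells, with 0.34 (0.24 to 0.44) and 0.15 (0.06 to 0.24), and in endothelial-like cells, with 0.21 (0.15 to 0.27) and 0.32 (0.27 to 0.37). Atp1b2 was lower in SGC-like cells, with -0.10 (-0.20 to -0.01) and -0.26 (-0.35 to -0.17), and higher in neuron-like cells, with 0.85 (0.46 to 1.24) and 0.73 (0.39 to 1.09). The sum of the 8 SGC markers in neuron-like cells was 363, 564 and 527 CPM (naïve, day 7, day 14), and its part in these values was not tested.

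The mix of clusters within the classes differed between the libraries too. With it held at naïve, the neuron-like ratios were 0.45 and 0.46 for Kcnj10, -0.046 and -0.0036 for Glul, and 0.71 and 0.53 for Atp1b2, so that Glul was no longer above 0. Kcnj10 at day 14 had -0.49 (-1.03 to 0.05) in neuron-like cells led by Zcchc12 and Pou4f3 and 1.18 (0.29 to 2.14) in those led by Mrgprd and Gm765. The endothelial-like ratio of Glul was 0.09 and 0.05 with the mix held. In endothelial-like cells led by Car4 and Gpihbp1 (240, 151 and 232 cells) Glul had 0.08 (0.01 to 0.16) and -0.07 (-0.14 to -0.01), and in those led by Dkk2 and Vegfc (41, 47 and 79 cells) 0.15 (0.04 to 0.26) and 0.41 (0.32 to 0.51). The day 7 interval of Atp1b2 in SGC-like cells included 0 under 3 of the alternatives given under the processing, and its ratio was -0.07 with the mix held.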

How the results depend on the processing

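The log2 ratios of the 6 genes in SGC-like cells were recomputed under 11 alternatives (2 cell filters, doublets kept, 2 clustering resolutions, a gate on markers per cell, 2 other totals, the mean over cells, leaving out the interferon-led cluster, and, chosen after the data were seen, the cluster mix held at naïve). No SGC-like ratio whose interval excluded 0 changed sign, but the interval of Atp1b2 at day 7 then included 0 with median-ratio size factors (-0.19 to 0.00095), without mitochondrial UMIs (-0.17 to 0.02) and without the interferon-led cluster (-0.18 to 0.02). In neuron-like cells, holding the cluster mix at naïve (added after the data were seen) turned Glul from 0.34 to -0.046 at day 7 and from 0.15 to -0.0036 at day 14. The SGC-like ratios of Kcnj10, near 0, ran from -0.02 to 0.06 at day 7 and from -0.06 to 0.04 at day 14. Glul at day 14, -0.51 as reported, moved by more than its counting error to -0.34 with the mix held, -0.43 as the mean over cells and -0.41 without a cell filter, and ran from -0.54 to -0.34 in all. Slc4a4 at day 14, 0.26 as reported, moved to 0.35 with the mix held and 0.35 without a cell filter. Slc1a2 stayed past 1.5-fold under all 11, from 0.64 to 0.78 at day 7 and from 0.67 to 0.92 at day 14. With no minimum but 1 UMI in each library, the genes at least 1.5-fold higher numbered 1286 at day 7 (230 with the minimum of 50 UMIs) and 1891 at day 14 (496), and those lower 1172 (250) and 1154 (334). Another total (median ratios, or without mitochondrial UMIs) shifted all genes by at most 0.03. At resolution 2, 206 of the SGC-like cells were left unnamed.

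No paired analysis was possible because a condition is a single library here. For the same reason the spread between animals is unknown, condition and library cannot be told apart, and leaving out a replicate could not be tried. Slc1a2, with 154 to 275 UMIs in SGC-like cells, was limited most by depth.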

Other observations

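The genes whose levels were most like those of each of the 6 genes were sought over 30 points, which are classes in single libraries with at least 20 cells, by Pearson's r of log2(CPM + 1) among 9626 genes that reached 50 CPM in a point. The points repeat the same classes across libraries and share libraries and depth, so r is a description without a p-value. Kcnj10 was most like Sox2 (r = 0.94), a transcription factor of glia, then Slitrk2 (0.92) and Lrrc4b (0.91). Slc1a2 was most like Cntfr (r = 0.95), the receptor subunit for ciliary neurotrophic factor, then Fhdc1 (0.93) and Dclk1 (0.91). Slc4a4 was most like Trpm3 (r = 0.91), Scd1 (0.91) and Megf10 (0.90).

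The 3 genes that were highest outside glia had other neighbours. Glul was most like Thsd1 (r = 0.89), Slc2a1, the glucose transporter of vessel walls (0.84), and Cyyr1 (0.84). Slc1a3 was most like Col9a2 (r = 0.94), a collagen gene, Fbn2, a fibrillin gene (0.93), and Gm19935 (0.91). Atp1b2 was most like Plce1 (r = 0.96), Nr2f1 (0.94) and Setbp1 (0.94). Among the 6 genes themselves the closest pair was Slc1a2 and Slc4a4 (r = 0.89) and the least alike were Glul and Atp1b2 (r = -0.30).

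The class called macrophage-like held a cluster led by Cd209a and Ccr2 (22, 69 and 95 cells) that met the marker rule, although its 10 leading genes, among them Itgax, H2-Eb1 and H2-Ab1, include no marker of macrophages. It had 35.6, 281 and 186 CPM of Glul from 3, 129 and 114 UMIs, with log2 ratios of 2.98 (1.40 to 5.28) and 2.38 (0.80 to 4.68), and no cell type is given to it here. The cluster of the class led by Ccl8 and Cd163 had 512, 551 and 511 CPM, and intervals of its ratios over naïve included 0. A small cluster led by Ccl8 and Pla2g2d (12 cells at day 7 and 10 at day 14) had between 363 and 669 CPM. These clusters were singled out after their values were seen.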
